A study of Mus musculus with 6 samples.

Results

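The 9 genes described here are receptors, effectors and targets of the Notch pathway together with surface genes that mark a Notch-dependent subset of splenic dendritic cells, Notch1, Notch2, Rbpj, Dtx1, Hes1, Nrarp, Esam, Cd4 and Ltbr. They were chosen by symbol and found by Entrez gene ID, 9 of the 27179 genes counted, and all 9 passed the filter on low counts. RNA-seq had been run on dendritic cells negative for CD8, sorted by flow cytometry from the spleens of C57BL/6 mice and lysed without culture. Libraries numbered 2, 3 and 4 came from CpG-pretreated mice and 3 libraries with the same numbers from mice without treatment. CpG DNA triggers the innate sensor TLR9, and the title given to the series names paralysed cells after a systemic inflammatory syndrome. The dose, route and timing of CpG, the age of the mice and whether each library came from 1 mouse or a pool were not stated in the sources read. The question addressed is how levels of these genes in the sorted cells differed after CpG.

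Notch receptors are cut after a ligand on a neighbouring cell binds them, first by an ADAM protease and then by gamma-secretase. The freed intracellular part enters the nucleus, joins the DNA-binding protein RBPJ and turns on target genes such as Hes1, Nrarp and Dtx1. In mouse spleen, conventional type 2 dendritic cells (cDC2) with high surface ESAM, many of which carry CD4, need NOTCH2 and RBPJ, and signals through the lymphotoxin beta receptor help to maintain them.

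Each library held 7855500 to 8228140 counts. Levels are given as CPM, counts scaled to a common library total, on which 1 count was worth 0.123 to 0.127. The dendritic cell genes Itgax (1812 to 2275 CPM) and Sirpa, a cDC2 marker (1197 to 1531 CPM), were abundant, and Cd8a, the gene for the excluded antigen, lay between 1.23 and 4.69 CPM. Both libraries numbered 2 held fewer counts on long genes than the others of their group. Over 11602 genes, the difference in log2 CPM between library 2 and the mean of libraries 3 and 4 had a Spearman correlation with gene length of -0.67 in untreated and -0.55 in CpG libraries. These correlations are across genes of the same libraries and describe those libraries. Erythroid transcripts differed between groups as well, with the summed list at 18.7 to 65.8 CPM in untreated libraries and 174 to 783 CPM in CpG libraries, lowest in CpG library 4.

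Of the 9 genes, Esam was lower after CpG by the test over all genes, at about 59.3% of its untreated level. That call held under 8 of 16 alternative fits and was lost without any 1 of the 6 libraries. Dtx1 and Cd4 were lower with the replicate number as a block, by 0.47 and 0.54 on the log2 scale. In bulk RNA, fewer ESAM-high or CD4-positive cells and less of these transcripts per cell cannot be told apart. Hes1 had the largest estimated difference, -0.90, and did not pass the test with or without the block. Estimates for Notch2, Rbpj and Ltbr lay between -0.05 and 0.05 on the log2 scale, and Notch1 and Nrarp had few counts. By edgeR's quasi-likelihood test with Benjamini-Hochberg adjustment, 1 of the 9 was called at an adjusted p under 0.05, against 0.974% of all genes tested in either direction and 0.5% lower. With the block 3 of 9 were called, all lower, against 8.52% of all genes tested in either direction and 3.78% lower.

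Per kilobase of gene length, the 9 genes spanned a wide range in untreated cells. Mean levels in RPKM, which is CPM divided by gene length in kilobases, were 163 ± 11.1 for Dtx1, 154 ± 4.15 for Cd4, 46.1 ± 7.16 for Esam, 37.9 ± 13.2 for Notch2 and 32.2 ± 2.82 for Ltbr (SD, n = 3). Hes1 followed at 24.3 ± 5.69 RPKM, Rbpj at 11.4 ± 1.64 RPKM, Nrarp at 0.7501 ± 0.075 RPKM and Notch1 at 0.513 ± 0.181 RPKM. Ranges of neighbours in this order overlapped for Dtx1 and Cd4, for Esam and Notch2, for Notch2 and Ltbr, for Ltbr and Hes1, and for Nrarp and Notch1. They did not overlap between Cd4 and Esam, Hes1 and Rbpj, or Rbpj and Nrarp. In CpG libraries Esam, at 27.4 ± 1.83 RPKM, stood below Notch2 (39.1 ± 11.2 RPKM) and Ltbr (31.1 ± 3.14 RPKM), where the ranges of Esam and Notch2 overlapped and those of Esam and Ltbr overlapped as well. Notch1 and Nrarp were lowest there too, at 0.748 ± 0.070 and 0.629 ± 0.116 RPKM.

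**Figure D1:**
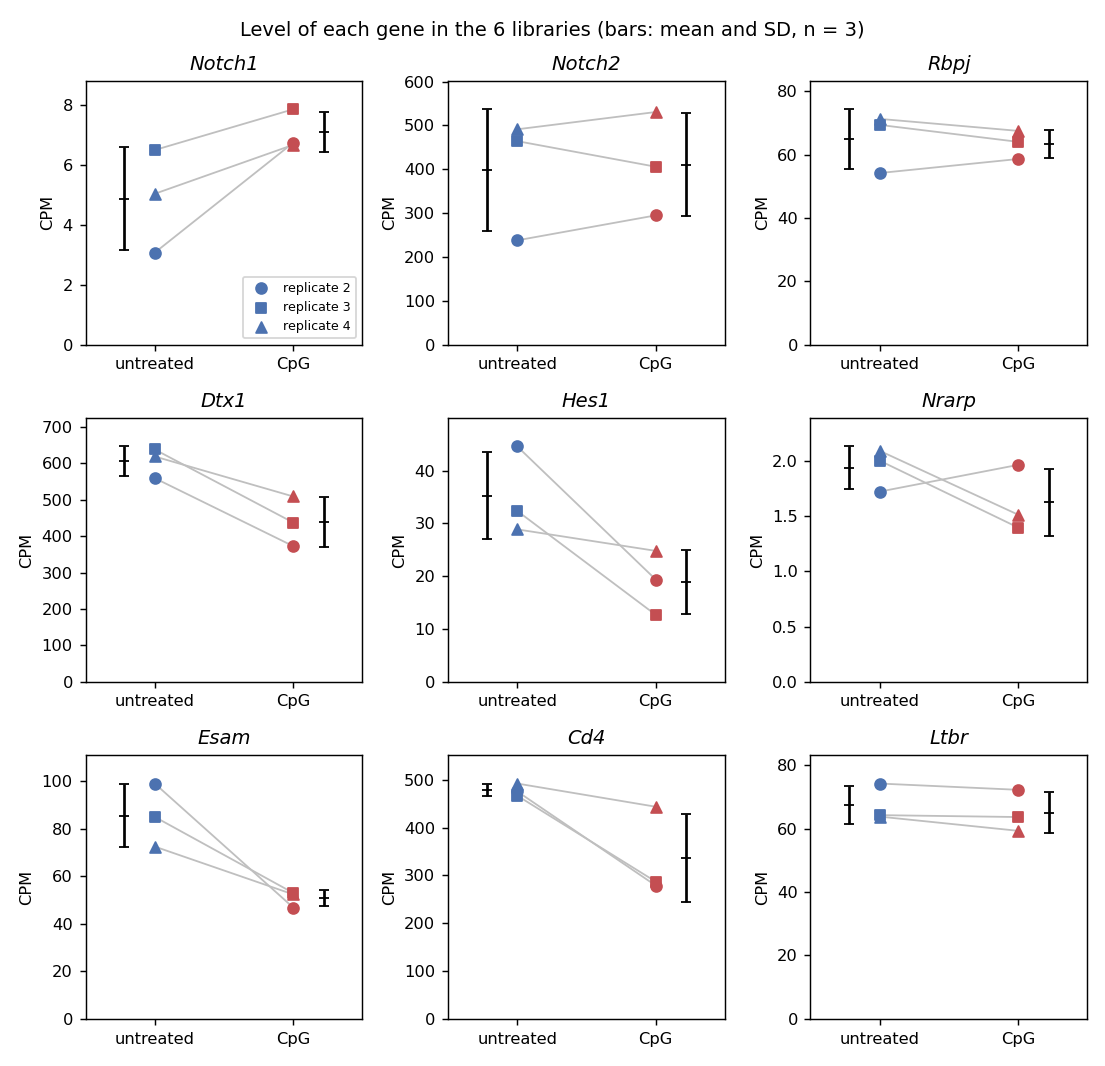
Normalized level (CPM, linear axes from 0) of each of the 9 genes in the 6 libraries, with blue for untreated, red for CpG, marker shape for the replicate number, grey lines joining equal numbers and black bars for mean and SD (n = 3 per group). All 3 CpG values of Esam, Dtx1, Hes1 and Cd4 lie under the 3 untreated values, while those of Notch2, Rbpj, Nrarp and Ltbr overlap them.

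Among the receptors, Notch2 dominated. Notch2 (Entrez 18129; GRCm38 chromosome 3, 98013538 to 98150367, plus strand, 34 exons in the principal transcript) stood at 238, 464 and 491 CPM in untreated libraries 2, 3 and 4. It stood at 295, 406 and 531 CPM in CpG libraries 2, 3 and 4. The groups overlapped, and library 2 was the lowest of each. CpG minus untreated was 0.05 in log2 (SE 0.29, edgeR adjusted p = 0.976), with a 95% interval from -0.62 to 0.71. With the block the estimate was 0.07 and its SE fell to 0.09 (adjusted p = 0.706), and with the trend on gene length removed from each library it was 0.05 (SE 0.14, adjusted p = 0.894).

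Library 2 had the lowest Notch2 level of each group, far from the other libraries in untreated cells and at about even steps in CpG cells. It was below the mean of libraries 3 and 4 by a difference of -1.004 (log2 CPM) in untreated and -0.65 in CpG cells. Gene length in the deposited table is 10506 bases for Notch2, and some other long genes of the pathway, picked after their values were seen, gave like differences. The coactivator gene Ep300 (8749 bases) gave -0.998 and -0.61, the coactivator gene Crebbp (7507 bases) -0.99 and -0.72, and the corepressor gene Spen (12299 bases) -1.30 and -0.63. Notch1 (9489 bases), which had few counts, gave -0.85 in untreated but only -0.099 in CpG cells. Rbpj (5710 bases) gave -0.37 and -0.16. The shorter genes among the 9 did not share 1 sign. Ltbr (2092 bases) gave 0.21 and 0.23 and Hes1 (1451 bases) 0.54 and 0.12, while Esam (1854 bases) gave 0.33 and -0.17. Nrarp (2582 bases) gave -0.22 and 0.38, Cd4 (3095 bases) -0.01 and -0.36, and Dtx1 (3715 bases) -0.17 and -0.34. Over the 53 tested genes of the Notch lists the Spearman correlation of this difference with length was -0.76 in untreated and -0.62 in CpG libraries, as a description of these libraries.

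**Figure D2:**
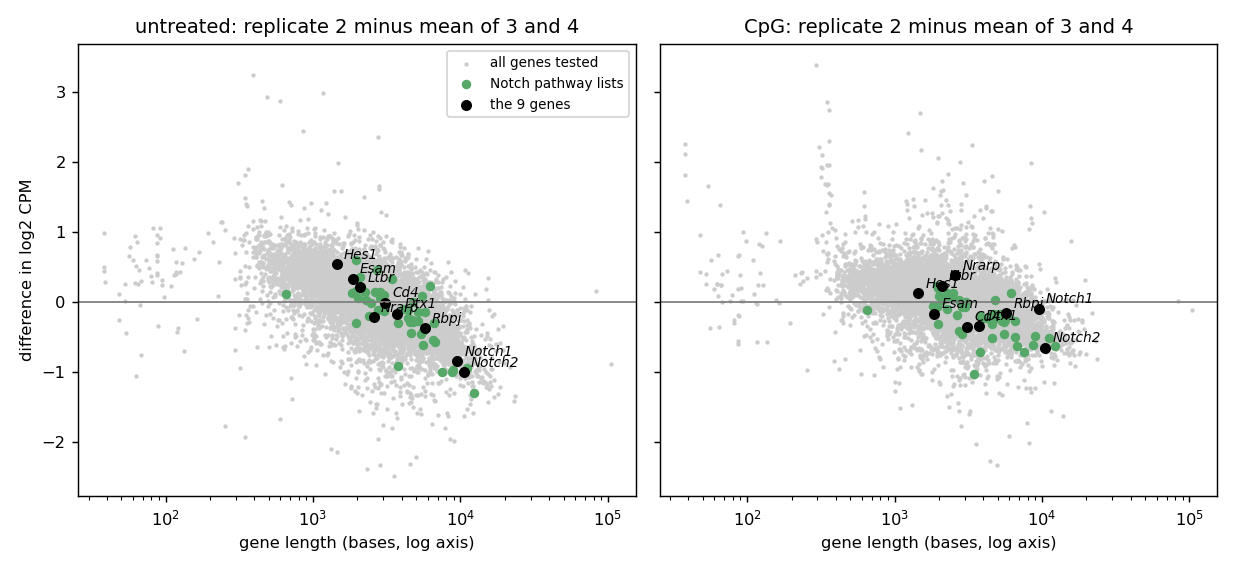
Difference in log2 CPM between library 2 and the mean of libraries 3 and 4 (vertical) against gene length in bases (horizontal, log axis), in untreated (left) and CpG (right) cells, with all genes tested in grey, genes of the Notch lists in green and the 9 genes in black. Notch2 sits at -1.004 and -0.65, near the low end of the downward trend over all genes.

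Notch1 (Entrez 18128; chromosome 2, 26457902 to 26503822, minus strand, 34 exons) had 25, 52 and 41 counts in untreated libraries 2, 3 and 4 and 55, 62 and 53 counts in CpG libraries. That equals 3.07, 6.50 and 5.04 CPM against 6.75, 7.86 and 6.67 CPM. The lowest CpG value was just above the highest untreated one. The estimated difference was 0.54 in log2 (SE 0.27, adjusted p = 0.465, or 0.144 under the block), so that the test was not passed. An overlapping noncoding gene, 0610009E02Rik, had at most 1 count in any library. Notch4 had 14.1 ± 1.67 CPM in untreated and 15.1 ± 3.27 CPM in CpG cells (log2 fold change 0.10, adjusted p = 0.918), and Notch3 did not exceed 0.245 CPM.

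Rbpj (Entrez 19664; chromosome 5, 53555779 to 53657445, plus strand, 11 exons), the DNA-binding partner of cleaved Notch, was at 54.2, 69.4 and 71.3 CPM in untreated libraries 2, 3 and 4. In CpG libraries it was at 58.6, 64.0 and 67.5 CPM. The CpG values lay inside the untreated range. The estimate was -0.04 in log2 (SE 0.13, adjusted p = 0.966, 95% interval -0.33 to 0.26). RefSeq lists 3 Rbpj pseudogenes, so some counts may be uncertain as to the copy they came from.

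RefSeq promoter windows of the GRCm38.p6 build, from 250 bases before to 50 after a start listed for a gene, were matched for 6 of the 9 genes. Those of Hes1, Esam and Cd4 were not matched. The windows of the target genes Dtx1 and Nrarp and the first of the pair listed for Rbpj are shown because Dtx1 is the target whose level was called lower with the block, Nrarp a target that was not, and RBPJ the protein through which both are switched on. Capitals mark matches to TGGGAA, the core of the RBPJ site, or to the E-box CACGTG, a motif of basic helix-loop-helix factors. Both strands were searched, and the motifs do not share letters in these windows. In order, the windows lie at chr5:120711620-120711919 (minus strand), chr2:25180508-25180807 (plus strand) and chr5:53590096-53590395 (plus strand). The Rbpj window lies at a start inside the gene, whose stated span begins at 53555779.
Dtx1: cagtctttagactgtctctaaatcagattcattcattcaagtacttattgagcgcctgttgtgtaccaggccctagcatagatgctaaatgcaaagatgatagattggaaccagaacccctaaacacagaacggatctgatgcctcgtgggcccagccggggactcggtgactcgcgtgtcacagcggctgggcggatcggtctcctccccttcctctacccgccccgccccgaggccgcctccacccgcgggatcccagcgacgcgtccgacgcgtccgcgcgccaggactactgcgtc
Nrarp: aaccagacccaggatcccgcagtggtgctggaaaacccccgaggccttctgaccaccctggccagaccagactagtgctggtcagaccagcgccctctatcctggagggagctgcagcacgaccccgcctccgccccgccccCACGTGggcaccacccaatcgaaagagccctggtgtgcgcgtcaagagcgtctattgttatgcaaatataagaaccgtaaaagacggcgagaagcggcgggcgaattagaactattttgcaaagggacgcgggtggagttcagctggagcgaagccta
Rbpj: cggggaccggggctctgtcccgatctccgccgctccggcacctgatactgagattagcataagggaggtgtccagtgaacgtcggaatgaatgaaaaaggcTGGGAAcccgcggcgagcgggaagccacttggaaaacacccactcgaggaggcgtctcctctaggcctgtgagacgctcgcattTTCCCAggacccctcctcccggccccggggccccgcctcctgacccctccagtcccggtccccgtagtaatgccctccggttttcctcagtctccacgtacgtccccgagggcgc
The Rbpj window held 2 matches to TGGGAA, on the plus strand from position 102 and on the minus strand from position 186 counted from its 5′ end. The Nrarp window held 1 E-box, from position 143, and the Dtx1 window held neither motif. Ltbr had 1 E-box, and Notch1 and Notch2 had neither motif. Of all 32851 windows of this length, 25.6% held TGGGAA and 7.15% held CACGTG, so these matches describe the letters only.

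The 3 target genes were at very different levels. Dtx1 (Entrez 14357; chromosome 5, 120680203 to 120711867, minus strand, 10 exons), a Deltex ubiquitin ligase gene and Notch target, was at 559, 638 and 619 CPM in untreated libraries 2, 3 and 4. It was at 373, 437 and 509 CPM in CpG libraries 2, 3 and 4. Every CpG library lay below every untreated one, and CpG library 4 was the closest to them. The log2 estimate was -0.46 (SE 0.13, adjusted p = 0.146), and with the block it was -0.47 (SE 0.08, adjusted p = 0.00226). Differences within numbers 2, 3 and 4 were -0.59, -0.54 and -0.28. Dtx1 was also called by DESeq2 (adjusted p = 0.0458), with the length trend removed (0.0283) and without CpG library 4 (-0.58, adjusted p = 0.0444).

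Hes1 (Entrez 15205; chromosome 16, 30065357 to 30067796, plus strand, 4 exons), a transcriptional repressor and classical Notch target, was at 44.6, 32.4 and 28.9 CPM in untreated libraries 2, 3 and 4. It was at 19.4, 12.7 and 24.8 CPM in CpG libraries. The groups did not overlap, though CpG library 4 and untreated library 4 were close. The estimated level after CpG was 53.7% of untreated, or -0.90 in log2 (SE 0.25, adjusted p = 0.148), and with the block -0.90 (SE 0.23, adjusted p = 0.0834). Within numbers 2, 3 and 4 the differences were -1.19, -1.34 and -0.22. It was called under 1 of the 16 alternatives, DESeq2 (adjusted p = 0.0308).

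Nrarp (Entrez 67122; chromosome 2, 25180758 to 25183339, plus strand, 1 exon), a feedback inhibitor of Notch signalling, had 14, 16 and 17 counts in untreated and 16, 11 and 12 counts in CpG libraries 2, 3 and 4. The groups overlapped. For Nrarp the estimate was -0.25 in log2 (SE 0.28, adjusted p = 0.843), with a 95% interval from -0.89 to 0.38.

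Esam (Entrez 69524; chromosome 9, 37528089 to 37538319, plus strand, 7 exons), which encodes the adhesion molecule that names the subset, was at 99.0, 85.0 and 72.5 CPM in untreated libraries 2, 3 and 4. It was at 46.9, 53.0 and 52.4 CPM in CpG libraries 2, 3 and 4. The CpG libraries lay close together and below all untreated ones. Esam fell by 0.75 on the log2 scale (SE 0.13, adjusted p = 0.0444), and with the block by 0.75 (SE 0.11, adjusted p = 0.00106). Within numbers 2, 3 and 4 the differences were -1.08, -0.68 and -0.47. Without any 1 of the 6 libraries the call was lost (adjusted p from 0.0507 without CpG library 4 to 0.180 without untreated library 3), with log2 fold changes of -0.86 to -0.62. It was also lost by limma-voom (adjusted p = 0.0615) and without both libraries numbered 2 (-0.58, adjusted p = 0.0621).

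Cd4 (Entrez 12504; chromosome 6, 124864693 to 124888247, minus strand, 10 exons), the coreceptor gene that in spleen is also expressed by many cDC2, was at 476, 467 and 492 CPM in untreated libraries 2, 3 and 4. It was at 279, 287 and 444 CPM in CpG libraries 2, 3 and 4. CpG libraries 2 and 3 stood far below the untreated range, and CpG library 4 just below it. For Cd4 the estimate was -0.51 in log2 (SE 0.17, adjusted p = 0.251), and with the block -0.54 (SE 0.12, adjusted p = 0.0215). The differences within numbers 2, 3 and 4 were -0.77, -0.70 and -0.15. Cd4 was called under 2 of the 16 alternatives, the block and the fit without CpG library 4 (-0.76, adjusted p = 0.00959). With the block and the length trend also removed, the estimate was -0.54 and Cd4 was not called (adjusted p = 0.0732).

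CpG library 4 was the nearest to the untreated libraries in Dtx1, Hes1 and Cd4 but not in Esam, where CpG library 3 was the highest of its group. The summed erythroid list was 174 CPM in CpG library 4, against 783 and 725 CPM in CpG libraries 2 and 3. Its part in these differences was not tested.

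Ltbr (Entrez 17000; chromosome 6, 125306571 to 125313885, minus strand, 10 exons), the receptor for lymphotoxin, was at 74.2, 64.3 and 63.8 CPM in untreated libraries 2, 3 and 4. It was at 72.2, 63.7 and 59.3 CPM in CpG libraries. The groups overlapped, with library 2 the highest of each. For Ltbr the estimate was -0.05 in log2 (SE 0.11, adjusted p = 0.938), and the 95% interval ran from -0.31 to 0.21.

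**Figure D3:**
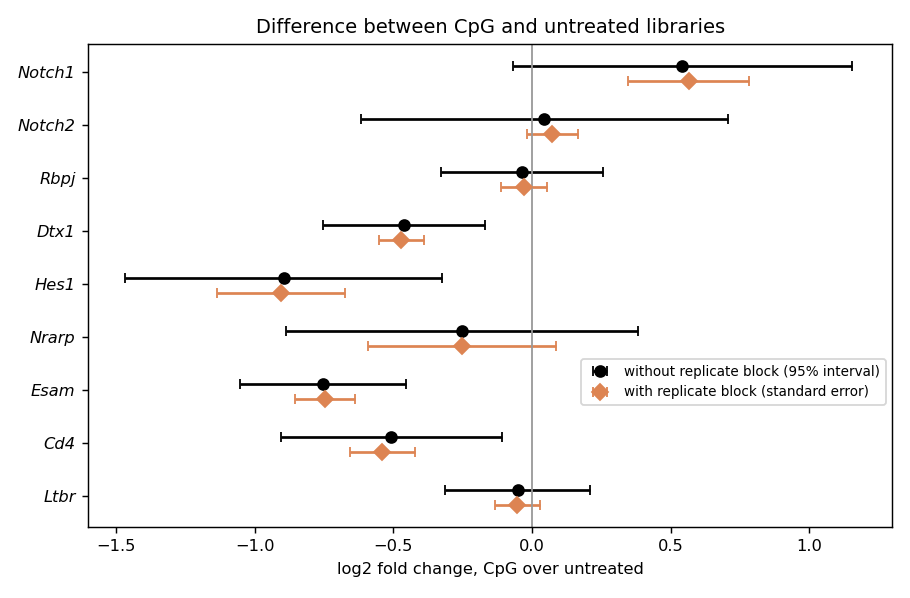
Log2 fold change of CpG over untreated for the 9 genes, with black circles and 95% intervals from the fit without the replicate number and orange diamonds with standard errors from the fit with it as a block. Esam (-0.75), Dtx1 (-0.46), Hes1 (-0.90) and Cd4 (-0.51) lie left of 0 with intervals that do not reach it, while Notch2, Rbpj and Ltbr lie between -0.05 and 0.05. The intervals are not adjusted for the number of genes tested. Of these genes only Esam was called without the block, and 1485 of all 11602 genes tested had an unadjusted p under 0.05.

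In groups that did not overlap, 4 of the 9 genes were lower after CpG (Esam, Dtx1, Hes1 and Cd4), against 9.47% of all genes tested. Notch1 was the 1 of 9 with all CpG libraries higher, against 9.2% of all genes.

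ESAM is also carried by endothelial cells and platelets, and CD4 by helper T cells, so marker lists of these cells were read beside Esam and Cd4. Of the 8 endothelial genes, Emcn and Cldn5 had no count in any library, Tek and Egfl7 stayed at or below 0.614 CPM, and Cdh5, VE-cadherin, at or below 2.25 CPM. Against 3 counts as the limit for a count of 0, which is 0.368 to 0.380 CPM, Esam was at 46.9 CPM or more in every library. The other endothelial genes were present: Pecam1 at 109 to 139 CPM, Kdr from 13.8 ± 2.26 CPM (untreated) to 40.5 ± 14.4 CPM (CpG) and Vwf from 25.6 ± 1.63 to 14.2 ± 1.32 CPM. Vwf, like Esam, fell (-0.85 in log2, SE 0.13, adjusted p = 0.0388), and Kdr rose (1.55, SE 0.26, adjusted p = 0.0438, or 0.0720 under the block). The summed list was at 152 to 174 CPM in untreated and 165 to 211 CPM in CpG libraries, and the part of such cells in the Esam result was not tested. The 7 megakaryocyte and platelet genes summed to 2.21 to 2.58 CPM in untreated and 2.64 to 4.95 CPM in CpG libraries, with Gp1bb at 0 in all. The part of platelets in the Esam difference was not tested either.

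Of the 7 T cell genes, Cd3d, Cd3e and Cd3g did not exceed 1.35, 0.888 and 0.507 CPM, while Cd4 was at 279 CPM or more in every library. Lck, Cd28 and Thy1 did not exceed 2.21 CPM. Cd5, which other immune cells also express, made up most of the T cell sum at 38.3 to 42.1 CPM and its estimate was 0.02 in log2 (adjusted p = 0.975). The T cell list summed to 41.1 to 44.4 CPM in untreated and 42.1 to 47.7 CPM in CpG libraries, and the part of T cells in the Cd4 difference was not tested. Red pulp macrophage genes moved in the same direction as Esam and Cd4. Of these 10 genes 3 were called lower, and 8 with the block, against 0.5% and 3.78% of all genes tested. They summed to 476 to 605 CPM in untreated and 332 to 451 CPM in CpG libraries. The part of macrophage RNA in the differences of the 9 genes was not tested. Of the 4 cDC2 marker genes, 0 were called and 1 was lower with the block, against 0.974% and 3.78% of all genes tested. Cd209a, a C-type lectin gene, was at 209.6, 182 and 207.5 CPM in the untreated libraries 2, 3 and 4 and at 131, 95.4 and 147 CPM in the CpG libraries, without overlap (-0.68, adjusted p = 0.0885, or 0.000301 under the block). Irf4, a transcription factor gene of cDC2, was also without overlap, at 181 ± 7.98 and 142 ± 27.8 CPM (-0.35, adjusted p = 0.338, or 0.0515 under the block). Itgam, the CD11b gene, gave 0.28 (adjusted p = 0.485) and Sirpa -0.07 (adjusted p = 0.917). The summed cDC2 list was at 1842 to 2189 CPM in untreated and 1744 to 2239 CPM in CpG libraries, and its part in the Esam and Cd4 differences was not tested. Of 8 markers of type 1 conventional dendritic cells, 0 were called. With the block 4 were higher, Xcr1, Irf8, Itgae and Tlr3, against 4.73% of all genes tested, and 0 were lower. That list summed to 164 to 202 CPM in untreated and 170 to 257 CPM in CpG libraries. Plasmacytoid dendritic cell genes summed to 118 to 125 and 122 to 157 CPM, neutrophil genes to 1.97 to 63.9 and 40.9 to 73.1 CPM, and NK cell genes to 0.246 to 1.25 and 0.252 to 3.19 CPM.

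**Figure D4:**
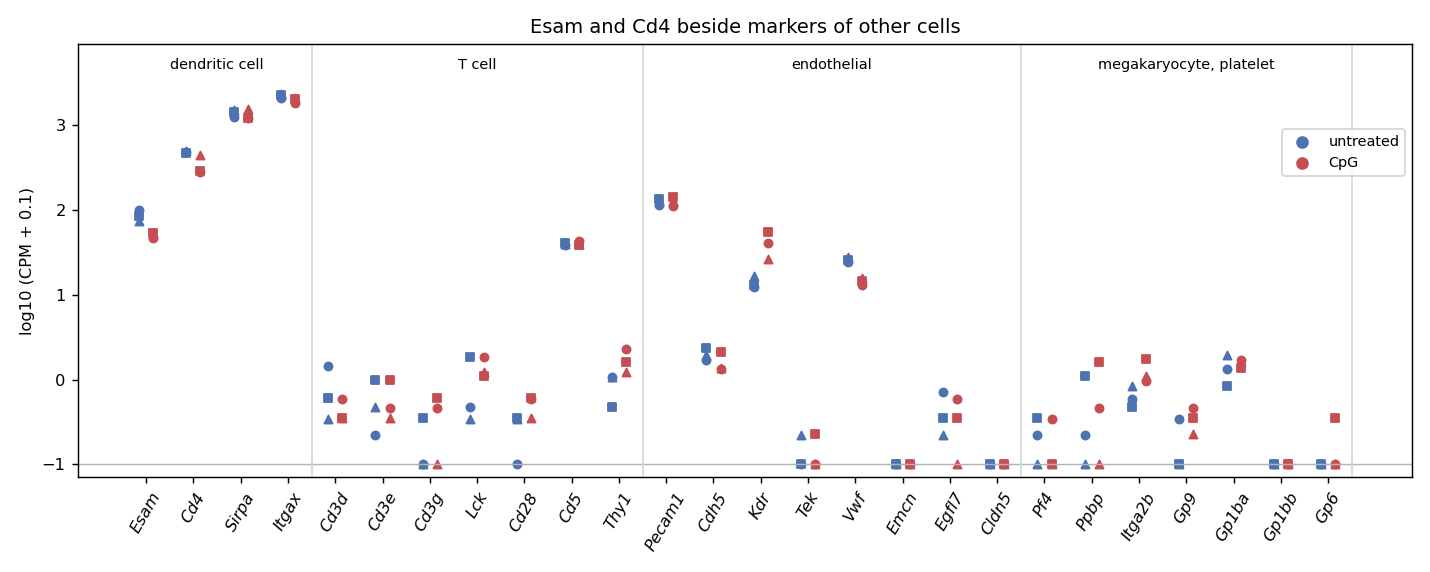
Level in each library, as log10 of CPM plus 0.1, of Esam, Cd4, 2 dendritic cell genes and every gene of the T cell, endothelial, and megakaryocyte and platelet lists, with untreated libraries in blue and CpG in red. The grey line marks a count of 0, where Emcn, Cldn5 and Gp1bb lie in all 6 libraries, and the Cd3 genes lie at 1.35 CPM or less.

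The rest of the Notch pathway was read from 8 lists by role, 64 genes in all, of which 53 were tested. By edgeR without the block 0 of the 53 were called, against 0.974% of all genes tested. At an unadjusted p under 0.05 there were 8 of the 53, against 1485 of all 11602 genes tested. By limma-voom 0 of the 53 were called, against 41 of all 11602. DESeq2, run without the filter on low counts, called 5 genes of the Notch lists and 439 over all genes. Its total is therefore not out of the 11602, and no share is given. With the block 2 were higher and 4 lower, against 4.73% and 3.78% of all genes tested. The median log2 fold change was 0.00 over the 53 genes and -0.01 over all genes tested, and 38 of the 53 lay within 0.25 of 0.

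Among ligand genes, Jag1 was the abundant one. It was at 39.6, 40.0 and 34.5 CPM in untreated libraries 2, 3 and 4 and at 18.8, 21.8 and 30.6 CPM in CpG libraries, without overlap. For Jag1 the estimate was -0.68 in log2 (SE 0.18, adjusted p = 0.124), and with the block -0.70 (adjusted p = 0.0321). Dll4, the ligand of the Delta type with the highest level, was at 1.36 ± 0.330 and 1.63 ± 0.721 CPM. Dll1 and Jag2 did not pass the filter, and Dll3 had no count in any library.

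Genes that modify and cut the receptors gave no calls. Of the 6 glycosylation and maturation genes, all tested, 0 were called with or without the block and log2 fold changes ran from -0.14 to 0.09. Lfng, a Fringe glycosyltransferase gene, was at 221 ± 4.74 and 217 ± 10.7 CPM, and its relative Mfng at 80.7 ± 4.66 and 78.7 ± 2.30 CPM. Of the 9 cleavage genes 0 were called either way, and log2 fold changes ran from -0.34 to 0.18. The lowest was Aph1c, a gamma-secretase subunit gene, at 40.2 ± 5.67 and 31.8 ± 3.92 CPM with overlapping groups (-0.34, adjusted p = 0.361, or 0.0833 under the block). The sheddase gene Adam17 was at 216 ± 10.2 and 231 ± 20.4 CPM (log2 fold change 0.10, adjusted p = 0.813) and the gamma-secretase subunit gene Ncstn at 156 ± 5.38 and 157 ± 6.63 CPM (0.01, adjusted p = 0.981).

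The nuclear complex and the corepressors gave 0 called genes of 9 and of 8, with log2 fold changes of -0.31 to 0.57 and -0.13 to 0.69. Ep300 was at 256 ± 88.8 and 275 ± 65.9 CPM (0.10, adjusted p = 0.948), and Snw1, which encodes a coactivator that binds cleaved Notch, at 122 ± 7.75 and 121 ± 6.35 CPM. The corepressor genes Ctbp1 and Hdac2 were at 227 ± 4.67 and 234 ± 14.7 CPM and at 94.9 ± 3.56 and 96.9 ± 5.81 CPM.

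The regulators of receptors and ligands, the largest of the Notch lists, held most of the genes called with the block. Of 13 tested, 0 were called without the block. With it Dtx1, Dtx3 and Dtx4 were lower and Dtx3l and Neurl1b higher, against 3.78% and 4.73% of all genes tested. Dtx4, a Deltex relative of Dtx1, was at 13.5, 16.4 and 13.8 CPM in the untreated and 7.11, 6.34 and 10.6 CPM in CpG libraries 2, 3 and 4. Its estimate was -0.86 in log2 (SE 0.21, adjusted p = 0.103, or 0.0113 under the block). Dtx3 gave -0.31 (adjusted p = 0.447, or 0.0407 under the block), with overlapping groups. Dtx3l differed in sign from these Deltex genes, at 199 ± 12.5 and 273 ± 30.1 CPM (0.45, SE 0.11, adjusted p = 0.0996, or 0.00193 under the block). Dtx2 was also higher without overlap, at 34.2 ± 1.69 and 40.0 ± 0.860 CPM, but was not called (0.23, adjusted p = 0.388, or 0.172 under the block). Dtx3l overlaps Parp9 and Dtx3 overlaps F420014N23Rik, and without a stated strand setting reads of overlapping genes cannot be told apart. Neurl1b, a Neuralized ubiquitin ligase gene that acts on ligands, was at 17.3 ± 2.06 and 25.1 ± 1.41 CPM (0.53, SE 0.13, adjusted p = 0.103, or 0.0102 under the block).

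Of the 11 genes on the target list, 5 were tested. Besides Dtx1, Hes1 and Nrarp these were Myc (0.18, adjusted p = 0.737) and Ccnd1, a cyclin gene at 1846 ± 219 and 1792 ± 149 CPM (-0.04, adjusted p = 0.948). Hes5, Hey1, Hey2, Heyl, Ptcra and Gata3 did not exceed 0.888 CPM in any library, and Ptcra had no count at all.

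**Figure D5:**
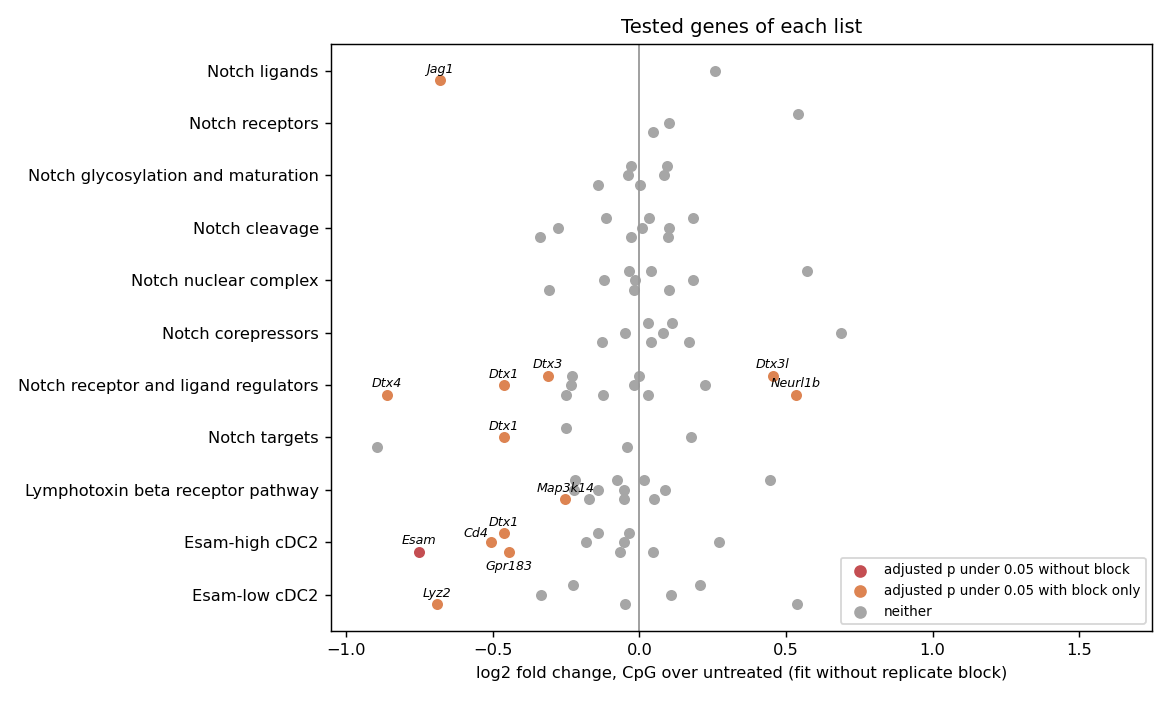
Log2 fold change of CpG over untreated for every tested gene on the Notch, lymphotoxin beta receptor, ESAM-high and ESAM-low lists, 1 row per list. Red marks genes called without the block, orange genes called with the block only and grey the rest. The other marker lists are not drawn. Esam is the 1 red point, and the orange points include Jag1, Dtx4 and Dtx1 on the left and Dtx3l and Neurl1b on the right.

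Of 11 genes on the list of the ESAM-high subset, all tested, 1 was called lower (Esam) and none higher. Over all genes tested 0.5% were called lower and 0.474% higher. With the block 4 were lower, Esam, Dtx1, Cd4 and Gpr183, and none higher, against 3.78% and 4.73% of all genes tested. Gpr183, an oxysterol receptor gene needed for dendritic cell positioning in spleen, was at 109, 85.5 and 103 CPM in the untreated and 73.2, 56.8 and 88.8 CPM in CpG libraries 2, 3 and 4. Its groups overlapped, and its estimate was -0.44 in log2 (SE 0.17, adjusted p = 0.306, or 0.00644 under the block). Gpr183 overlaps Ubac2, which was also tested. Tbx21 went the other way without overlap, at 53.1 ± 4.39 and 64.1 ± 2.63 CPM (0.27, adjusted p = 0.293, or 0.0568 under the block). Clec4a4 (-0.18, adjusted p = 0.742) and Runx3 (-0.07, adjusted p = 0.927) had overlapping groups and were not called. The list median was -0.14, with 9 of 11 below 0, against -0.01 over all genes. The list shares 6 genes with the 9 described here, so its count is no separate evidence.

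Genes of the ESAM-low subset were read from a list of 7, all tested, of which 0 were called without the block. With it Lyz2, a lysozyme gene with a near-identical copy, was lower, at 424 ± 125 and 263 ± 56.1 CPM (-0.69, adjusted p = 0.2496, or 0.000169 under the block). Csf1r, the receptor gene for macrophage colony-stimulating factor, was at 365 ± 36.4 and 353 ± 44.6 CPM (-0.05, adjusted p = 0.945). Clec10a was higher without overlap, at 6.71 ± 1.38 and 9.74 ± 1.40 CPM (0.54, adjusted p = 0.313, or 0.0829 under the block). Csf3r (-0.34, adjusted p = 0.319) and Clec12a (-0.23, adjusted p = 0.531) were lower without overlap. Ccr2 (0.21, adjusted p = 0.838) and Cx3cr1 (0.11, adjusted p = 0.917) had overlapping groups. The median of the list was -0.05, with 4 of the 7 below 0 and 3 above. A difference between the ESAM-high and ESAM-low lists was not tested.

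In the pathway of the lymphotoxin beta receptor, 0 of 12 genes were called by edgeR, with 0 at an unadjusted p under 0.05 and 0 by DESeq2 or limma-voom. Map3k14, the NIK kinase gene of the alternative NF-kappaB pathway, was at 330 ± 32.4 and 277 ± 25.3 CPM (-0.25, SE 0.11, adjusted p = 0.413) and was the 1 gene called with the block (adjusted p = 0.0477). Relb, the transcription factor at the end of that pathway, was at 632 ± 52.7 and 573 ± 11.1 CPM (-0.14, adjusted p = 0.651). Ltb, a lymphotoxin gene, was at 321 ± 51.4 and 309 ± 45.4 CPM (-0.05, adjusted p = 0.950). The list median was -0.06, with 10 of 12 within 0.25 of 0.

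The genes most like Esam over the 6 libraries, by Pearson correlation of log2 CPM among 8938 candidates, were Por (0.996), Carns1 (0.993), Arpin (0.992), Ldb1 (0.985) and Kptn (0.985). Arpin fell from 15.5 ± 2.50 to 9.18 ± 0.746 CPM with the block (log2 fold change -0.75, adjusted p = 0.0828, or 0.00816 under the block), and the other 4 were not called either way. Those most like Dtx1 were Cdcp1 (0.994), Marcks (0.993), Rhof (0.992), Smug1 (0.991) and Gpr4 (0.991). Cdcp1 (-0.73), Marcks (-0.52), Rhof (-0.53) and Gpr4 (-0.70) were called lower with the block (adjusted p from 0.000363 to 0.00273) and not without it, and Smug1 was not called. These correlations rest on 6 libraries that share the group difference, and they describe likeness of pattern only.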

How the data were processed

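Whole-number read counts per Entrez gene for 27179 genes in 6 libraries were deposited by the authors. The tools named in the submitters' processing notes are CASAVA and featureCounts, and the build is mm10. Their versions, the aligner, strandedness and the handling of multiply matching reads were not stated in the sources read. Symbols and positions came from RefSeq on GRCm38.p6 (mm10) by gene ID (25275 IDs matched, 1904 did not), and strands and exons from GENCODE M21 on the same assembly.

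Counts were tested in R 4.3.3 with edgeR 4.0.16 (filterByExpr with a minimum count of 10, TMM, robust quasi-likelihood F test), CpG against untreated, 3 libraries each, two-sided, with Benjamini-Hochberg adjustment over 11602 genes and calls at 0.05. CPM use TMM library sizes, RPKM the deposited gene length, and log2 CPM a prior count of 2. Standard errors came from the fold change and F. Alternatives used limma 3.58.1 (voom), DESeq2 1.42.0, other scalings and filters, a loess length correction and libraries left out. Fits were tested on simulated data. Libraries of a group differed by more than sampling noise (chi-square per degree of freedom 2.73 to 15.7). The labels call them biological replicates, and p-values measure the spread between these libraries only.

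Both groups carry the numbers 2, 3 and 4, whose meaning the labels do not state. Deviations from the group mean correlated at 0.48, 0.25 and 0.31 between equal numbers and at -0.39 to 0.07 between unequal ones. Deviations within a group sum to 0 for each gene, so positive values between equal numbers bring negative ones between unequal numbers by construction. Both libraries numbered 2 also share the trend on gene length, whose part in these correlations was not tested. The numbers were taken as pairs from the data alone, and the block is given where it changes a call. Calls with the block depend on that choice. The 9 genes and all lists were chosen with earlier results of these data known. Named genes were the 9, list genes called with or without the block (otherwise the most abundant pair per kilobase of a list), and the 5 genes most correlated with Esam and with Dtx1 among those whose average log2 CPM was 3 or more. Crebbp, Spen, Myc, Aph1c, Dtx2, some Notch list genes with few or no counts, some genes of the ESAM-high and ESAM-low lists and some marker genes were named beyond this rule, after their values were seen. Some marker genes that the rule covers, among them called macrophage and erythroid genes, are not named. A further marker list is not reported here.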

Additional observations from a re-analysis of the deposited data

How the results depend on the processing

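Over the 16 alternatives, Esam, Dtx1, Hes1, Cd4 and Nrarp were below 0 in all, Notch1 in none, Ltbr in 14, Rbpj in 13 and Notch2 in 3. With the replicate block Dtx1 (-0.47) and Cd4 (-0.54) were called, and the called genes numbered 3 of the 9, 6 of the Notch lists, 4 of the ESAM-high list, 1 of the lymphotoxin beta receptor list and 988 of all genes, against 113 without it. The block changed no other call among the 9. DESeq2, run without the filter on low counts, called Dtx1 (-0.45) and Hes1 (-0.89), with counts of 3, 5, 2 and, over all genes, 439. Without the filter 189 genes were called. Under limma-voom Esam (-0.74) was not called. The counts were 0 of the 9 and 0 of the ESAM-high list (4 and 5 at an unadjusted p under 0.05). Over all genes 41 were called, with 1455 at an unadjusted p under 0.05. With the length trend removed Dtx1 (-0.47) was called, with counts of 2, 3, 2 and 387. With the block as well Dtx1 (-0.47) was called, with counts of 2, 5, 4, 1 and 1150. Without both libraries numbered 2, an alternative chosen after seeing the data, Notch2 turned to -0.028 and Esam (-0.58) was not called. The counts were then 0 of the 9 and 0 of the ESAM-high list (2 and 3 at an unadjusted p under 0.05). Over all genes 67 were called, with 1423 at an unadjusted p under 0.05. The cause of these shifts was not tested. Leaving out each library in turn gave log2 fold changes of -0.86 to -0.62 for Esam, -0.58 to -0.35 for Dtx1, -1.14 to -0.67 for Hes1, -0.76 to -0.39 for Cd4, -0.41 to -0.15 for Nrarp, 0.31 to 0.80 for Notch1, -0.21 to 0.24 for Notch2, -0.14 to 0.038 for Rbpj and -0.13 to 0.037 for Ltbr. Called genes numbered 0 to 2 of the 9, 0 to 3 of the Notch lists, 0 to 2 of the ESAM-high list, 0 to 0 of the lymphotoxin list and 0 to 386 of all genes. The count over all genes was 0 without CpG library 2 or 3 (1065 and 1107 at an unadjusted p under 0.05), 386 without CpG library 4, and 34, 2 and 1 without untreated library 2, 3 or 4.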
